A study of Mus musculus with 10 samples.

Results

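The promoters of 8 genes named for pluripotency or for the germ line were followed through H3K4me3 CUT&Tag of sorted nEnd, the naive extra-embryonic endoderm culture that models early PrE. The genes were the developmental pluripotency-associated genes *Dppa2*, *Dppa3*, *Dppa4* and *Dppa5a* and the germline genes *Dazl*, *Ddx4*, *Mael* and *Sycp3*, 8 of 21866 protein-coding genes of the mouse annotation (GENCODE release M21, GRCm38). They were chosen by name, with earlier results of these data known. Each promoter was taken as the 1000 bp before and the 100 bp after any transcription start site (TSS) of the gene's protein-coding transcripts. A gene was called marked in a library where a listed peak overlapped that window by 1 bp or more, and otherwise the nearest peak was given.

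All cells came from 1 mouse ESC line that carries an OCT4-mCherry protein reporter, were differentiated to PrE and expanded on MEFs as nEnd in a medium with Activin A, CHIR99021 and LIF, and received no treatment. Sorting for the reporter and for surface PDGFRA-APC gave 3 populations, OCT4-mCherry single positive (Oct4+ nEnd, 4 libraries), double positive (DP nEnd, 3 libraries) and PDGFRA-APC single positive (Pdgfra+ nEnd, 3 libraries). For each library the authors listed the peaks called against IgG, with the summed coverage and the highest coverage of each peak, and for each population a consensus list. Coverage was not scaled between libraries, so a peak was described by its percentile by summed coverage among the peaks of its own library, where a percentile of 100 is the strongest peak, and by its width.

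The sequencing depth is unknown. The libraries listed 3477 to 9144 peaks in Oct4+ nEnd, 7575 to 8836 in DP nEnd and 6510 to 10545 in Pdgfra+ nEnd, and Oct4+ nEnd replicate 3 stood apart with 3477. Of 4 Epi marker genes (*Pou5f1*, *Nanog*, *Sox2* and *Esrrb*) all 4 were marked in every Oct4+ and DP nEnd library and 0 in every Pdgfra+ nEnd library. Of 6 PrE marker genes all 6 were marked in every DP and Pdgfra+ nEnd library and 4, 2, 1 and 0 in Oct4+ nEnd replicates 1 to 4. Of 14 fibroblast marker genes, listed because the cells grew on MEFs, 0 to 2 were marked in a library, and these were *Twist1* and *Tbx15*.

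H3K4me3 lies at the start of active and poised genes and is laid down mainly at CpG-rich promoters. DPPA2 and DPPA4 are DNA-binding partners that pluripotent cells use to keep H3K4 methylation at developmental promoters, DPPA3 (STELLA) protects the egg and early embryo from unscheduled changes of DNA methylation, and DPPA5A is an RNA-binding protein of ESCs and germ cells. Germline genes such as *Dazl*, *Ddx4*, *Mael* and *Sycp3* have CpG-rich promoters that in other cells are held silent by DNA methylation and by the repressor complex PRC1.6, in which E2F6 and the MGA-MAX pair recognise DNA.

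The 4 germline promoters are shown because H3K4me3 is usually found at CpG-rich sequence of this kind, while no peak was listed at these 4. The letters are the 250 bases before the RefSeq start on the gene's strand, GRCm38.p6, at chr17:50293621-50293870 (minus strand) for *Dazl*, chr13:112652311-112652560 (minus) for *Ddx4*, chr1:166238745-166238994 (minus) for *Mael* and chr10:88459337-88459586 (plus) for *Sycp3*. Capitals mark the letters TCCCGC or GCGGGA (read by E2F factors), CACGTG (the E-box of MGA-MAX) and CCAAT or ATTGG (the box of NF-Y), which do not overlap here.
Dazl: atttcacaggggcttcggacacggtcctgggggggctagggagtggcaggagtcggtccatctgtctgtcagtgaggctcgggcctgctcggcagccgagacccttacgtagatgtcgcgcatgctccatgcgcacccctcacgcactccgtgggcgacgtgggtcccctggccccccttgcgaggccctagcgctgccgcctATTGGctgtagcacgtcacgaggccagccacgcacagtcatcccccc
Ddx4: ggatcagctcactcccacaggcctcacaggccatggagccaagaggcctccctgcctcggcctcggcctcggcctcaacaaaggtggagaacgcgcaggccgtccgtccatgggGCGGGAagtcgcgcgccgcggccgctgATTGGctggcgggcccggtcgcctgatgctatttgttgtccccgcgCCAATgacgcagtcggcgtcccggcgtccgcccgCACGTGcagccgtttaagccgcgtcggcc
Mael: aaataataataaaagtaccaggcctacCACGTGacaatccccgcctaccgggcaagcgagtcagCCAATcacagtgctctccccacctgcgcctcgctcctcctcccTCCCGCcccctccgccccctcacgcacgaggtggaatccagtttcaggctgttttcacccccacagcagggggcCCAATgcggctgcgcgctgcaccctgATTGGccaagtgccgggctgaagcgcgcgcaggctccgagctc
Sycp3: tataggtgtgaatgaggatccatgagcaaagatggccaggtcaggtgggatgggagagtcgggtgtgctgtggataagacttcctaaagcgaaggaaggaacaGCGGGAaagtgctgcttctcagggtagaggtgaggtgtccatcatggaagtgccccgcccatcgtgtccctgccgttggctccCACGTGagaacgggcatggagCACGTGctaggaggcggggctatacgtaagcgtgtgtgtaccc

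All 4 of these promoters were CpG-rich. Their observed over expected number of CpGs was 0.710 in *Dazl*, 1.0 in *Ddx4*, 0.75 in *Mael* and 0.639 in *Sycp3*, against a median of 0.374 over 32851 RefSeq promoters of the same length. The E2F letters stood in 3 of the 4 (*Ddx4* at −136, *Mael* at −143 and *Sycp3* at −147 from the start) and in 16.9% of all promoters. The same 3 promoters held the E-box letters, which 6.02% of all promoters hold, at −29 in *Ddx4*, at −223 in *Mael* and at −64 and −43 in *Sycp3*. Both the E2F and the E-box letters contain a CpG. Their shares among CpG-rich promoters alone were not computed, so no enrichment is claimed. The CCAAT letters stood in *Dazl*, *Ddx4* and *Mael* and in 33.8% of all promoters. Neither the octamer ATGCAAAT (1.6% of all promoters) nor TATAAA (12.4%) was found on either strand of the 4. A match of letters is a description of the sequence and not of a bound factor.

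Of the 8 promoters, 7 carried no listed H3K4me3 peak in any of the 10 libraries or the 3 consensus lists. These were *Dppa2*, *Dppa3*, *Dppa4*, *Dazl*, *Ddx4*, *Mael* and *Sycp3*, and no base of a peak lay within any of these genes either. The paper lists *Dppa3* among OCT4 targets near primed enhancers of DP nEnd, with activation in Oct4+ nEnd. It also reports that *Dppa2* RNA rises from DP to Oct4+ nEnd. A missing peak here was not a measure of RNA or of enhancers. The background share was large, since 47.5% of all protein-coding genes (10383 of 21866) were marked in no library. Among CpG-rich promoters, taken as those with an observed over expected CpG of at least 0.6 and a GC content of at least 50%, 14.5% of 10189 overlapped no peak in any library, and the 4 germline promoters were among them. In single libraries 34.2% to 73.6% of these CpG-rich promoters overlapped a peak in Oct4+ nEnd, 68.4% to 76.1% in DP nEnd and 60.8% to 83.3% in Pdgfra+ nEnd. In these bulk populations, few cells with the mark and a weak mark in all cells cannot be told apart, and a missing peak means that none passed the authors' threshold.

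*Dppa5a* (ENSMUSG00000060461.5, chr9:78367052-78368177, minus strand) was the exception. Its promoter carried a peak in 3 of the 4 Oct4+ nEnd libraries, 1 of the 3 from DP nEnd and 0 of the 3 from Pdgfra+ nEnd. In Oct4+ nEnd the peak was 10489 bp wide in replicate 1, 8487 bp in replicate 2 and 6519 bp in replicate 4, a mean of 8498 ± 1985 bp (SD, n = 3 libraries with a peak). Its percentile by summed coverage was 86.5, 67.9 and 59.8 in the same replicates, or 71.4 ± 13.7 (SD, n = 3). The single DP nEnd peak, in replicate 2, was 4769 bp wide and stood at percentile 3.20, rank 8554 of 8836. Each of the 3 Oct4+ nEnd peaks was thus wider and ranked higher than the DP nEnd one. With 1 DP nEnd peak there is no spread in that population and no test of width or percentile was made.

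The peaks over *Dppa5a* were broad more than tall. By width they stood at percentile 96.5, 97.6 and 86.0 in Oct4+ nEnd replicates 1, 2 and 4, and by highest coverage at 64.8, 49.5 and 54.4. The highest coverage was 69, 52 and 40 there, against a library median over peaks of 59, 52 and 38. In DP nEnd replicate 2 it was 46 against a median of 144, which put the peak at percentile 1.47 by height and 63.3 by width. Every one of the 4 peaks covered 100% of the 1126-bp gene, and its highest coverage was centred within 100 bp of the TSS, on the transcribed side. In Oct4+ nEnd the peaks reached 4917, 3916 and 2491 bp upstream and 5571, 4570 and 4027 bp downstream of the TSS, and in DP nEnd replicate 2 they reached 1285 and 3483 bp. No other protein-coding promoter lay in any of them.

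**Figure D1:**
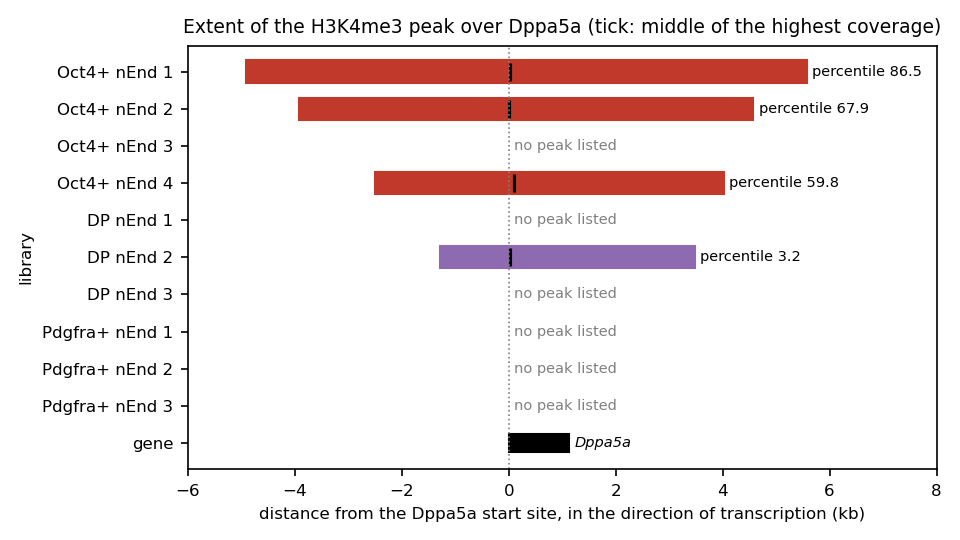
Extent of the H3K4me3 peak over *Dppa5a* in each of the 10 libraries, as distance from the TSS in kb in the direction of transcription, with the percentile by summed coverage printed beside each bar and a black tick at the middle of the highest coverage. Peaks are listed in Oct4+ nEnd replicates 1, 2 and 4 and in DP nEnd replicate 2, and the DP nEnd peak is the narrowest at 4769 bp.

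The difference between populations in the presence of the *Dppa5a* peak did not pass the test. The two-sided p of Fisher's exact test was 0.143 between Oct4+ and Pdgfra+ nEnd, 0.486 between Oct4+ and DP nEnd and 1 between DP and Pdgfra+ nEnd, each 1 after Benjamini-Hochberg adjustment over 21866 genes. The smallest p that the exact test allows is 0.0286 for 4 libraries against 3 and 0.10 for 3 against 3. By this test 0 genes passed at an adjusted p under 0.05 in any pair, while 389, 467 and 0 genes had an unadjusted p under 0.05 in the 3 pairs. Without Oct4+ nEnd replicate 3 the *Dppa5a* peak was in 3 of 3 libraries against 0 of 3 from Pdgfra+ nEnd (exact p = 0.10), and 0.572% of all genes then had a peak in each Oct4+ nEnd library and none in Pdgfra+ nEnd.

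In Oct4+ nEnd replicate 3 the nearest peak lay 111156 bp away at *Eef1a1*. That library had the fewest peaks, and of the 5395 genes marked in the other 3 Oct4+ nEnd libraries 1492 had no peak in it. In DP nEnd replicates 1 and 3 and in Pdgfra+ nEnd replicates 1 and 3 the nearest peak lay 78224 to 79430 bp away, at the shared *Mto1* and *Gm17324* promoter, and in Pdgfra+ nEnd replicate 2 it lay 110604 bp away at *Eef1a1*. The consensus list of Oct4+ nEnd held a *Dppa5a* peak, with the same 10489-bp extent as in replicate 1, and those of DP and Pdgfra+ nEnd held none. The Oct4+ nEnd list may not stand for all 4 libraries evenly. Of its 7860 peaks 4983 began at the first base of a replicate 1 peak and 15 at that of a replicate 3 peak. Replicate 3 is the library without the *Dppa5a* peak, and its part in the list was not tested. A shared first base shows which peak reached farthest and not which libraries held one. In the Pdgfra+ nEnd list 6550 of 7781 peaks began with a replicate 1 peak and 71 with a replicate 2 peak. When each library was cut to its 3477 strongest peaks, the *Dppa5a* peak stayed in 3 of 4 Oct4+ nEnd libraries and was lost in DP nEnd.

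The annotation lists unprocessed pseudogenes *Dppa5b* and *Dppa5c* on the same chromosome and a processed pseudogene, *Dppa3-ps*, on chromosome X. Reads that map equally well to a gene and its copy could be placed on either or dropped, so levels at *Dppa5a* and *Dppa3* are uncertain to that extent. No peak overlapped the same window at the 3 pseudogenes in any library, nor at *Dppa1*, a protein-coding gene of the DPPA name that was not among the 8.

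Only 3 other genes shared the exact pattern of *Dppa5a* over the 10 libraries. Ordered by the mean absolute difference in percentile over the 4 libraries with a peak, they were *Gm867* (16.7 percentile points), *Chrm4* (27.1) and *Jakmip1* (28.7). The *Gm867* peak also covered the *Chchd10* and *Mmp11* promoters and the *Chrm4* peak that of *Mdk*, so the mark there cannot be given to 1 gene. The *Gm867* peak stood at percentile 92.5, 83.0 and 86.5 in Oct4+ nEnd replicates 1, 2 and 4 and at 22.3 in DP nEnd replicate 2. At the other two the DP nEnd peak did not rank below all 3 Oct4+ nEnd ones, with 79.9 against 75.0 in Oct4+ nEnd replicate 4 at *Chrm4* and 2.46 against 1.04 at *Jakmip1*.

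*Dppa2* (ENSMUSG00000072419.5, chr16:48303908-48319723, plus strand) and *Dppa4* (ENSMUSG00000058550.15, chr16:48283733-48294237, plus strand) lie side by side, and both were far from any H3K4me3 peak. The nearest peak was the same one in every library, at the shared *Cip2a* and *Dzip3* promoter. Its edge was 681327 to 683012 bp from a *Dppa2* TSS and 708017 to 709702 bp from a *Dppa4* TSS, so the 3 populations overlapped. At *Dppa2* this was farther than in 74.8% to 88.7% of the unmarked genes of the same library. Both genes lay in a span of 2492391 bp, chr16:46499413-48991803, without a peak in any library. The span also holds the starts of *Morc1*, which acts in the male germ line, of the resistin-like genes *Retnla*, *Retnlb* and *Retnlg*, of *Trat1* and *Gm5485*, and an alternative start of *Dzip3*.

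**Figure D2:**
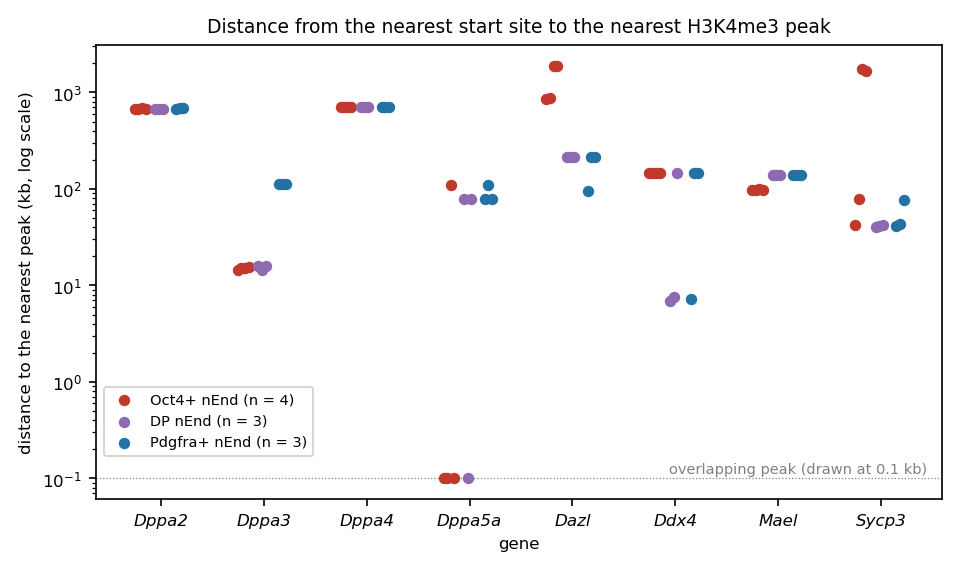
Distance in kb (log scale) from the nearest TSS of each of the 8 genes to the nearest H3K4me3 peak, 1 point per library and coloured by population, with overlapping peaks drawn at 0.1 kb. Distances at *Dppa2* and *Dppa4* are alike in all 10 libraries, while at *Dppa3*, *Dazl* and *Mael* those of 1 population do not overlap the rest.

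*Dppa3* (ENSMUSG00000046323.8, chr6:122626410-122630272, plus strand) lies between *Gdf3*, a TGF-beta family ligand of pluripotent cells, and *Nanog*. Its own promoter was unmarked, but its marked neighbours differed between the populations. In Oct4+ nEnd the nearest peak was that of *Gdf3*, 14608, 15317, 15344 and 15419 bp upstream in replicates 1 to 4, and in DP nEnd it was the same peak at 15784, 14593 and 15743 bp. In Pdgfra+ nEnd *Gdf3* and *Nanog* had no peak and the nearest was 112499, 113839 and 113315 bp downstream at *Slc2a3*, a glucose transporter gene. Distances larger in every Pdgfra+ nEnd library than in any other were found at 1.92% of the 10187 genes marked in no library for which every library gave a distance. Around *Dppa3* 47710 bp were free of peaks in all 10 libraries, and 249857 bp were free of them in all 3 Pdgfra+ nEnd libraries.

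The *Gdf3* peak was listed in all 4 Oct4+ and all 3 DP nEnd libraries but ranked very differently. In Oct4+ nEnd it stood at percentile 97.5, 97.0, 92.5 and 92.3 and in DP nEnd at 7.36, 19.8 and 14.2, so the populations did not overlap. The difference in means was 81.1 percentile points (permutation test, exact and two-sided, p = 0.0286, the smallest the design allows, and 0.279 after Benjamini-Hochberg adjustment over 3821 genes), and it did not pass after adjustment. Percentiles lay higher in every Oct4+ than in every DP nEnd library at 10.6% of these 3821 genes. Width did not separate them, with 5833 to 7964 bp in Oct4+ nEnd and 5407 to 6957 bp in DP nEnd (exact permutation test, p = 0.629, adjusted 0.881).

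The *Nanog* peak followed the same order, at percentile 96.8 to 99.3 in Oct4+ nEnd and 11.5 to 19.6 in DP nEnd. *Slc2a3* was marked in every library, at 96.3 to 98.8 in Oct4+ nEnd, 94.8 to 95.8 in DP nEnd and 27.0 to 80.9 in Pdgfra+ nEnd. A peak 33.1 kb downstream of the first *Dppa3* TSS that touched no promoter was listed in Oct4+ nEnd replicate 1 alone, at percentile 20.6. From other histone marks the paper describes a super enhancer upstream of *Nanog* that also regulates *Dppa3*. It was primed in DP nEnd and active in Oct4+ nEnd, and whether this peak lies in it was not tested.

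**Figure D3:**
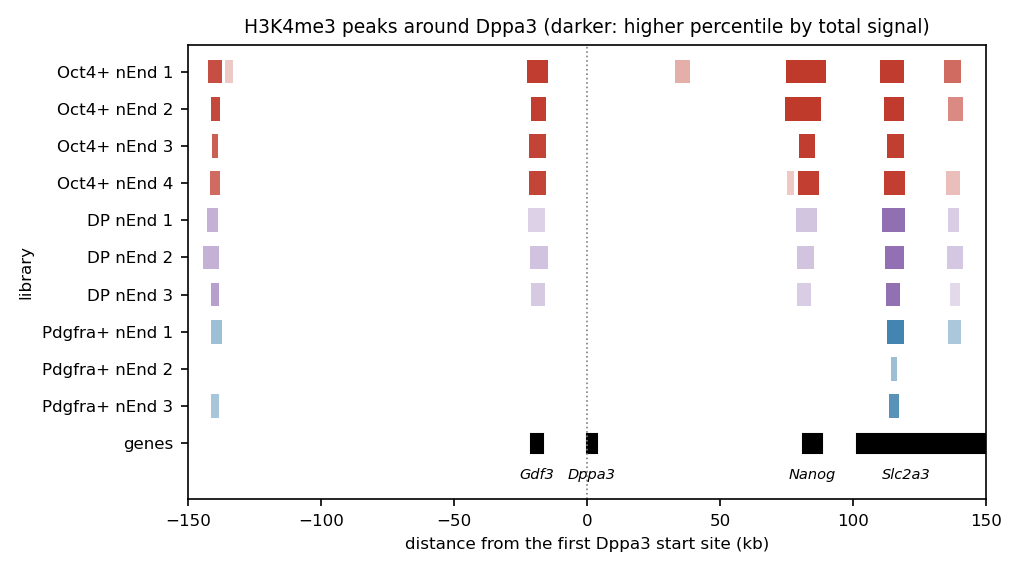
H3K4me3 peaks within 150 kb of the first *Dppa3* TSS in each of the 10 libraries (x axis, distance in kb; darker bars, higher percentile by summed coverage; black boxes, genes). No bar touches *Dppa3*, and those of *Gdf3* and *Nanog* are dark in Oct4+ nEnd, pale in DP nEnd and missing in Pdgfra+ nEnd.

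*Dazl* (ENSMUSG00000010592.9, chr17:50279395-50293636, minus strand), an RNA-binding protein that promotes translation in germ cells, had no listed peak within 96 kb in any library. In Oct4+ nEnd the nearest peaks were 857508, 884145, 1874869 and 1875459 bp away in replicates 1 to 4. In DP nEnd they were 213320 to 214422 bp away, upstream at *Plcl2*. In Pdgfra+ nEnd they were 96259 bp away at *Rftn1* in replicate 1, where that peak stood at percentile 0.0379, and 214847 and 214423 bp away at *Plcl2* in replicates 2 and 3. Every Oct4+ nEnd distance was thus larger than every other one, as it was at 4.95% of the same 10187 genes. The 2 largest distances came from Oct4+ nEnd replicates 3 and 4, the libraries with the fewest peaks, and the part of peak number in this was not tested. The *Plcl2* promoter, the nearest marked one upstream, had a peak in all 3 DP and all 3 Pdgfra+ nEnd libraries but in 0 of 4 from Oct4+ nEnd (Fisher's exact p = 0.0286 for each pair, adjusted 1). Of all genes 1.94% were marked in every DP and no Oct4+ nEnd library, and 1.42% in every Pdgfra+ and no Oct4+ nEnd library. With the 3477 strongest peaks of each library the *Plcl2* peak was left in 1 Pdgfra+ nEnd library, so the separation was lost.

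*Ddx4* (ENSMUSG00000021758.14, chr13:112598333-112652475, minus strand), the VASA helicase of germ cells, had the closest neighbouring peak of the germline genes. A peak at *Slc38a9*, a lysosomal amino acid transporter gene, began 6871 and 7542 bp upstream of a *Ddx4* TSS in DP nEnd replicates 1 and 2 and 7278 bp upstream in Pdgfra+ nEnd replicate 1. In the other 7 libraries, all 4 of Oct4+ nEnd included, the nearest peak was 145920 to 147969 bp upstream at *Plpp1*. The *Slc38a9* peak was weak, at percentile 3.17 and 10.3 in DP nEnd and 27.3 in Pdgfra+ nEnd, and it was listed only in the 2 DP nEnd libraries and the 1 Pdgfra+ nEnd library with the most peaks of their populations. The part of peak number in this was not tested.

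*Mael* (ENSMUSG00000040629.8, chr1:166201201-166238747, minus strand), which acts with piRNAs to silence transposons, also had different neighbours. In Oct4+ nEnd the nearest peak was 98262, 98040, 99638 and 98312 bp away in replicates 1 to 4, on the downstream side where *Gpa33* and *Dusp27* lie. In DP nEnd it was 139405, 139248 and 139218 bp away and in Pdgfra+ nEnd 138871, 139874 and 139598 bp, upstream at *Tada1*. Distances smaller in every Oct4+ nEnd library than in any other were found at 1.16% of the 10187 genes used for *Dppa3*. *Gpa33*, which encodes a surface glycoprotein, was marked in 4 of 4 Oct4+ nEnd libraries and in 0 of the other 6, and in 3 of the 4 its peak also covered the *Dusp27* promoter. *Tada1*, a subunit of the SAGA coactivator, was marked in all 6 of those and in 0 of 4 Oct4+ nEnd libraries. For both genes Fisher's exact p was 0.0286 against DP and against Pdgfra+ nEnd, adjusted 1. The pattern of *Gpa33* was found at 0.361% of all genes against Pdgfra+ nEnd and at 0.192% against DP nEnd. That of *Tada1* was found at 1.42% and 1.94% of all genes against the same populations. With the 3477 strongest peaks of each library *Gpa33* kept its 4 peaks, while *Tada1* kept those of the 3 Pdgfra+ nEnd libraries and lost those of DP nEnd.

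*Sycp3* (ENSMUSG00000020059.9, chr10:88459569-88473236, plus strand), a protein of the axis of meiotic chromosomes, lay 40755 to 43471 bp from a peak at *Chpt1* in 6 libraries, all 3 of DP nEnd among them. In Oct4+ nEnd replicate 2 and Pdgfra+ nEnd replicate 3 the nearest peak was 78216 and 77586 bp away, at *Dram1* and *Gnptab*. In Oct4+ nEnd replicates 3 and 4, the libraries with the fewest peaks, it was 1752495 and 1677823 bp away. The *Chpt1* peak was itself weak, at percentile 2.34 to 31.3 in the 6 libraries.

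None of the 8 genes separated any pair of populations by a peak in each library of one and no peak in the other. Over all genes these shares were 0.361% for Oct4+ nEnd and not Pdgfra+ nEnd, 0.192% for Oct4+ nEnd and not DP nEnd, 1.42% for Pdgfra+ nEnd and not Oct4+ nEnd, 1.94% for DP nEnd and not Oct4+ nEnd, 0.114% for DP nEnd and not Pdgfra+ nEnd and 0.00457% (1 gene) for Pdgfra+ nEnd and not DP nEnd. These shares depend on the number of peaks, and with 3477 per library the genes for Oct4+ nEnd and not Pdgfra+ nEnd went from 79 to 381 and those for Oct4+ nEnd and not DP nEnd from 42 to 282. Without Pdgfra+ nEnd replicate 1 the genes for Oct4+ nEnd and not Pdgfra+ nEnd were 156, and those for DP nEnd and not Pdgfra+ nEnd went from 25 to 245. Per library 0 or 1 of the 8 were marked, which is 9.38% ± 6.25 in Oct4+ nEnd (SD, n = 4), 4.17% ± 7.22 in DP nEnd (SD, n = 3) and 0% in each of the 3 Pdgfra+ nEnd libraries. Of all genes 31.3% ± 11.7 were marked in Oct4+ nEnd (SD, n = 4), 41.4% ± 2.90 in DP nEnd (SD, n = 3) and 41.0% ± 8.64 in Pdgfra+ nEnd (SD, n = 3).

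Most other genes of the germline programme also carried no listed H3K4me3 peak. Of 24 further meiosis genes 21 were marked in no library, among them *Sycp1*, *Dmc1*, *Spo11* and *Stra8*, and per library 0 to 3 were marked. The 3 that were marked anywhere were *Stag3*, *Tex14* and *Tex15*. The *Stag3* peaks also covered the *Gpc2* promoter and the *Tex14* peaks that of *Rad51c*, a DNA repair gene, so only the *Tex15* peak, in Pdgfra+ nEnd replicate 1, lay at 1 promoter. Of 15 further piRNA pathway genes 14 were marked in no library, as were 47.5% of all genes. The remaining one, *Tdrd5*, was marked in 1 of 4 Oct4+, 2 of 3 DP and 3 of 3 Pdgfra+ nEnd libraries, with weak peaks at percentile 0.408 to 24.5.

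**Figure D4:**
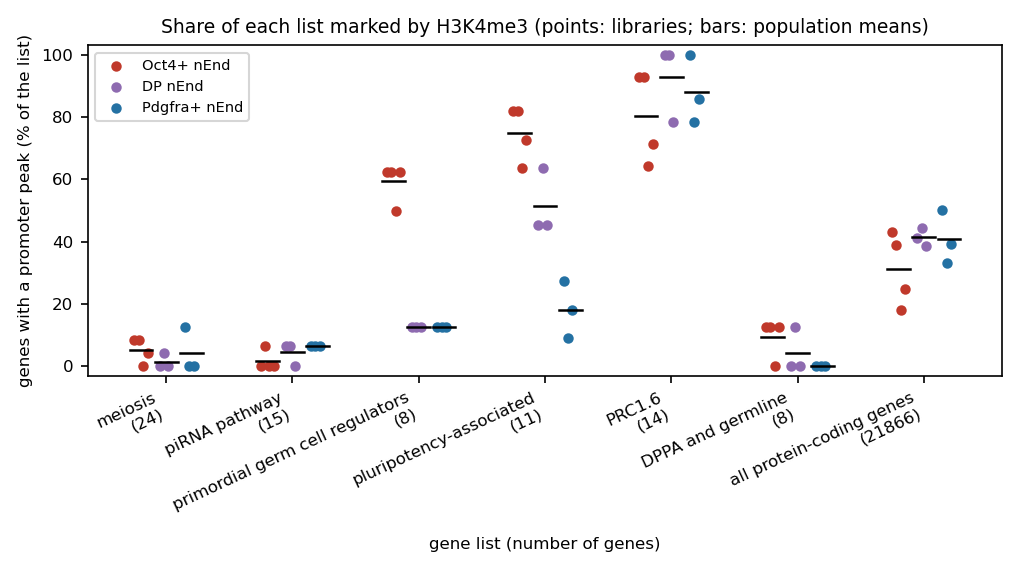
Share of the genes of each list with a promoter peak in each of the 10 libraries (points; black bars, population means), with the number of genes in each list in parentheses. The meiosis and piRNA lists stay at 12.5% or below in every library, while the germ cell regulators reach 50% to 62.5% in Oct4+ nEnd.

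Of 8 regulators of primordial germ cells 4 or 5 had a peak in each Oct4+ nEnd library (59.4% ± 6.25, SD, n = 4, where 31.3% of all genes did). Only 1 had a peak in each DP and Pdgfra+ nEnd library (12.5%, where 41.4% and 41.0% of all genes did). The list was chosen with these results known, and its difference from other lists was not tested. *Prdm14*, *Tfap2c* and *Ifitm3* were marked in 4 of 4 Oct4+ nEnd libraries and in 0 of the other 6 (for each, Fisher's exact p = 0.0286 against either population, adjusted 1). Over all genes 0.361% were marked in every Oct4+ and no Pdgfra+ nEnd library, and 0.192% in every Oct4+ and no DP nEnd library. PRDM14 and TFAP2C (AP-2 gamma) are DNA-binding proteins of naive pluripotency that also set up the germ line. Their peaks stood at percentile 87.3, 75.7, 46.3 and 65.3 at *Prdm14* and 80.4, 76.2, 46.1 and 56.6 at *Tfap2c* in replicates 1 to 4. *Ifitm1* was marked in Oct4+ nEnd replicates 1, 2 and 4 and nowhere else, the Oct4+ nEnd libraries in which *Dppa5a* was marked. With equal numbers of peaks *Prdm14*, *Tfap2c* and *Ifitm3* kept their 4 peaks and *Ifitm1* kept 1. *Prdm1*, *Nanos3* and *Dnd1* were marked in no library. *Kit*, the receptor of stem cell factor, was marked in every library, at percentile 78.4, 63.6, 31.7 and 16.7 in Oct4+ nEnd replicates 1 to 4, 85.9, 89.1 and 87.6 in DP nEnd and 94.6, 77.1 and 91.0 in Pdgfra+ nEnd. It thus ranked lower in every Oct4+ nEnd than in every DP nEnd library, with means of 47.6 and 87.6 (exact permutation p = 0.0571, adjusted 0.279), as 22.9% of the 3821 genes marked in all 7 libraries did, while Oct4+ and Pdgfra+ nEnd overlapped (exact permutation p = 0.114, adjusted 0.35). Its width was 4385 bp ± 944 in Oct4+ (SD, n = 4) against 7048 bp ± 476 in DP nEnd (SD, n = 3, exact permutation p = 0.0286, adjusted 0.432). Peaks were wider in every DP than in every Oct4+ nEnd library at 9.76% of the 3821 genes, and the reverse held at 1.26%. The lowest *Kit* percentiles came from Oct4+ nEnd replicates 3 and 4, the libraries with the fewest peaks. The part of peak number in this was not tested.

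Of 11 other pluripotency-associated genes 7 to 9 were marked per Oct4+ nEnd library (75.0% ± 8.70, SD, n = 4), 5 to 7 per DP nEnd library (51.5% ± 10.5, SD, n = 3) and 1 to 3 per Pdgfra+ nEnd library (18.2% ± 9.09, SD, n = 3), where 31.3%, 41.4% and 41.0% of all genes were marked. With equal numbers of peaks the list's shares were 63.6%, 12.1% and 0% in Oct4+, DP and Pdgfra+ nEnd, against 18.6%, 19.7% and 19.3% of all genes. *Gdf3*, *Utf1*, *Tdh* and *Tdgf1* had a peak in all 4 Oct4+ nEnd libraries and in 0 of 3 from Pdgfra+ nEnd, which is 4 of 11 genes where 0.361% of all genes did so. *Utf1*, a chromatin protein of pluripotent cells, was also marked in every DP nEnd library, at percentile 74.9, 31.5 and 30.2 against 98.9, 99.3, 97.6 and 98.6 in Oct4+ nEnd (exact permutation test of the means, p = 0.0286, adjusted 0.279). Oct4+ nEnd ranked higher without overlap at 10.6% of the 3821 genes tested. *Tdh*, which encodes threonine dehydrogenase, had a peak in 2 of 3 DP nEnd libraries, and *Tdgf1*, a Nodal co-receptor gene, had one in 1 of 3, at percentile 0.441. *Fbxo15* had a promoter peak in every library, at percentile 44.0 to 72.6 in Oct4+ nEnd, 47.2, 44.4 and 25.1 in DP nEnd and 53.4, 1.46 and 38.2 in Pdgfra+ nEnd. Its peak also covered the *Timm21* promoter in all 3 DP and all 3 Pdgfra+ nEnd libraries and in 0 of 4 from Oct4+ nEnd, so the mark there cannot be given to either gene. Of the oocyte and germline names on this list, *Khdc3* and *Tex19.1* were marked in no library, and *Ooep* was marked in Oct4+ nEnd replicates 1, 2 and 4 only.

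**Figure D5:**
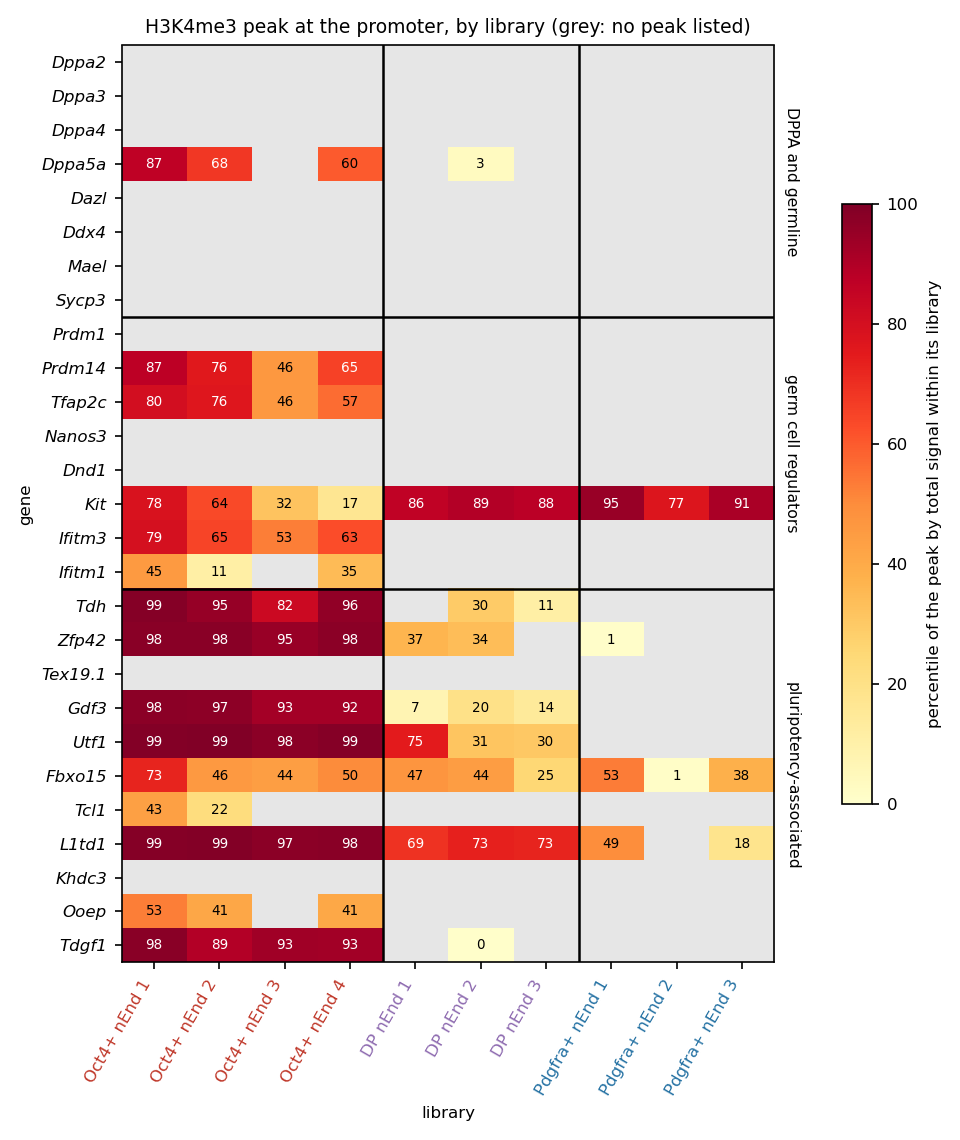
Percentile by summed coverage of the promoter peak at the 8 DPPA and germline genes, 8 primordial germ cell regulators and 11 pluripotency-associated genes (rows) in the 10 libraries (columns), with grey where no peak is listed. Among the 8 genes only *Dppa5a* has coloured cells, at 86.5, 67.9 and 59.8 in Oct4+ nEnd and 3.20 in DP nEnd.

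Of 14 genes of the PRC1.6 repressor 9, among them *Rnf2* and *Max*, were marked in every library, as were 16.3% of all genes, while *L3mbtl2* and *Pcgf6* were each marked in 2 of 4 Oct4+, 2 of 3 DP and 1 of 3 Pdgfra+ nEnd libraries. Of the 14 genes 9 to 13 were marked per Oct4+ nEnd library (80.4% ± 14.7, SD, n = 4) and 11 to 14 per DP (92.9% ± 12.4, SD, n = 3) and Pdgfra+ nEnd library (88.1% ± 10.9, SD, n = 3), where 31.3%, 41.4% and 41.0% of all genes were. With equal numbers of peaks these list shares fell to 58.9%, 54.8% and 57.1%, and the order of Oct4+ and DP nEnd turned. *E2f6*, the DNA-binding subunit that reads the E2F letters, had a peak in all 3 DP and all 3 Pdgfra+ nEnd libraries but in 0 of 4 from Oct4+ nEnd (Fisher's exact p = 0.0286 against either, adjusted 1). Of all genes 1.94% had a peak in every DP and no Oct4+ nEnd library, and 1.42% in every Pdgfra+ and no Oct4+ nEnd library. In Oct4+ nEnd the nearest peak to an *E2f6* TSS was 82020 to 82448 bp away. The *E2f6* peaks were narrow and low in rank, at percentile 20.3, 27.9 and 5.91 in DP nEnd and 38.7, 13.0 and 18.2 in Pdgfra+ nEnd. None of the 6 was among the 3477 strongest peaks of its library, so with equal numbers of peaks *E2f6* was marked in 0 of 10 libraries and the separation was lost.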

How the data were processed

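H3K4me3 CUT&Tag peaks of 4 Oct4+, 3 DP and 3 Pdgfra+ nEnd libraries were used. Coverage came from BEDtools, and the authors used SEACR (stringent, IgG as control) for peaks and DiffBind for consensus lists. The submitters' processing notes name bcl2fastq 2.19.1, Bowtie2, SAMtools 1.12, bedtools 2.26.0, deepTools and the build mm10 (GRCm38). The deposited peak lists give each peak's summed signal and highest coverage, unscaled between libraries. The consensus lists carry a deposited score of 1 throughout, so only positions were used. How multi-mapping reads were treated is not given in the sources used here. Libraries were grouped by the population in their titles, and the authors' other histone marks were not analysed here.

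Peaks were intersected with promoters of 21866 genes (GENCODE release M21, 54374 TSS). For all genes, presence was compared by Fisher's exact test, and percentile and width, where every library of both populations had a peak, by exact permutation of the difference in means, each with Benjamini-Hochberg adjustment over the genes of the pair and a threshold of 0.05. The procedures were tested on simulated data. The 8 genes, the gene lists and the motifs were chosen with earlier results of these data known. Besides the 8 genes, the text names genes at the nearest or shared peaks, up to 3 genes with the pattern of a marked gene, and listed genes marked throughout 1 population and absent from another. *Nanog*, *Ifitm1*, *Kit*, *Ooep*, *Fbxo15*, *Timm21*, *Rnf2*, *Max*, *L3mbtl2*, *Pcgf6*, *Stag3*, *Tex14*, *Tex15*, *Tdrd5* and the unmarked list genes fall outside this rule and were chosen after their values were seen. Promoter sequences are from RefSeq (GRCm38.p6), in which 4 of the 8 genes were matched. Same-numbered libraries did not vary together (see the dependence on processing), so they were not paired. Alternatives were a window reaching 2500 bp both ways, 50% of the window covered, equal numbers of peaks (3477 per library), TSS of all transcripts, ranks by highest coverage, ranks among promoter peaks, a replicate block and leaving out each library. p-values measure the spread between libraries, which the labels number as replicates without naming separate cultures. Tests used scipy 1.17.1, tables pandas 2.3.3 and numpy 2.4.6, and figures matplotlib 3.10.9, under Python 3.11.15.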

Additional observations from a re-analysis of the deposited data

Results flagged for a closer look

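Of 31 sets of 4 Oct4+ nEnd values examined, 6 had 1 library far from the other 3 by Dixon's criterion, which chance alone meets in about 1 in 20 sets. In 3 of the 6 (the *Dppa5a* distance and both shares of genes) the other 3 libraries were tied, so that any difference meets the criterion and this rate does not apply. The distance from a *Dppa3* TSS to the nearest peak was 14608 bp in replicate 1 against 15317 to 15419 bp in the others. The distance at *Dppa5a* was 111156 bp in replicate 3, where no peak was listed, and 0 in the others. The distance at *Mael* was 99638 bp in replicate 3 against 98040 to 98312 bp. The *Tdgf1* peak was 15508 bp wide in replicate 1 against 7635 to 8794 bp. The share of piRNA pathway genes marked was 6.67% (1 of 15 genes, *Tdrd5*) in replicate 2 and 0% in the others. The share of primordial germ cell regulators marked was 50% in replicate 3, which lacked the *Ifitm1* peak, and 62.5% in the others. Replicate 3 has the fewest peaks, and the part of this in its 3 values was not tested.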

How the results depend on the processing

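The 7 unmarked genes stayed unmarked in every alternative run. The *Dppa5a* difference in presence between Oct4+ nEnd and either other population stayed above 0 in every alternative and passed the test in none. Its difference between DP and Pdgfra+ nEnd, 33.3% of libraries, was 0 with equal numbers of peaks and without DP nEnd replicate 2, the 1 DP nEnd library with the peak. Counts over all genes moved more. With equal numbers of peaks, 381 genes had a peak in each Oct4+ nEnd library and none in Pdgfra+ nEnd (79 with all peaks) and 482 the reverse (310), 282 separated Oct4+ from DP nEnd (42), 71 DP from Pdgfra+ nEnd (25) and 40 Pdgfra+ from DP nEnd (1, and 0 with 50% of the window covered). Leaving out each library in turn gave 79 to 156, 310 to 627, 42 to 90, 25 to 245 and 1 to 30 for these, and 425 to 757 for DP and not Oct4+ nEnd. The highest counts came without Pdgfra+ nEnd replicate 1 (156 and 245), Pdgfra+ nEnd replicate 2 (627 and 30), Oct4+ nEnd replicate 3 (90) and Oct4+ nEnd replicate 1 (757). The other libraries that moved a count by over 1.5 times were Oct4+ nEnd replicate 3 (125 genes in place of 79), Oct4+ nEnd replicate 1 (557 in place of 310), and Pdgfra+ nEnd replicate 3 and DP nEnd replicate 2 (7 and 20 in place of 1).

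With equal numbers of peaks the share marked was 0% for the meiosis list in Oct4+ nEnd and for the piRNA list in DP and Pdgfra+ nEnd. It was 50% for the germ cell regulators in Oct4+ nEnd. It was 63.6%, 12.1% and 0% for the pluripotency-associated list and 58.9%, 54.8% and 57.1% for PRC1.6, in Oct4+, DP and Pdgfra+ nEnd. With TSS of all transcripts the germ cell regulators reached 71.9% in Oct4+ and 20.8% in Pdgfra+ nEnd. Fewer peaks or more start sites are what these settings change by construction.

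At *Gdf3* the percentile difference was 77.9 to 84.1 without single libraries, no longer able to pass 0.05, and had no value with equal numbers of peaks, where DP nEnd lost the peak. The width difference changed sign, from 388 bp to −65.0 bp without Oct4+ nEnd replicate 1 and −16.3 bp without DP nEnd replicate 3, and was highest at 759 bp without DP nEnd replicate 2. Replicate numbers are shared by the populations, but deviations of same-numbered libraries correlated at −0.204 to 0.206 over 9 pairs and others at −0.385 to 0.348 over 24. With a replicate block the *Gdf3* percentile difference was 81.9 (exact sign-flip p = 0.25, the smallest 3 pairs allow) and the *Dppa5a* difference between Oct4+ and Pdgfra+ nEnd 66.7% of libraries (exact p = 0.50). Depth is unknown, and the unequal numbers of peaks limit what a missing peak can show.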
